A study of Rattus norvegicus with 40 samples.

Results

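The comparison of tPA with plain gel in the injured left carotid artery at day 1 rested on 6 of the 40 arrays of the series, 3 from arteries that received tissue plasminogen activator (tPA) and 3 from arteries that received the carrier. The arrays were chosen by their titles, with labels kept as deposited. All came from male Wistar-Kyoto rats aged 3 months whose left common carotid artery had been injured with a balloon catheter, which strips the inner lining and stretches the wall. The tPA group then received recombinant tPA at 20 nmol/kg in pluronic gel on the outer side of the artery, and the gel group received the gel alone. Each array holds the joined RNA of 3 vessels, so it is a pool of rats, and the p-values measure the spread between pools. The series also holds sham-operated arteries (4 arrays at day 1), intact arteries (6 arrays), the same 2 treatments at day 4, and the right artery of the injured rats.

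tPA is a serine protease that turns plasminogen into plasmin, which dissolves fibrin, cleaves matrix proteins and activates growth factors and other proteases. Smooth muscle cells of an uninjured artery are contractile and rarely divide. After balloon injury they are known to leave the resting state, copy their DNA and enter mitosis, with the genes of replication and of mitosis rising in waves.

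The genes past the test threshold in this comparison included 4 of cell division. Their promoters are shown because many cell division genes carry, near the start site, a CCAAT box (bound by NF-Y) and the element TTTGAA, the core of the cell cycle genes homology region bound by repressor complexes in resting cells. Each run goes from 250 bases before the start site to 30 after it, 5′ to 3′ on the gene's strand, from RefSeq on build GRCr8. Capitals mark CCAAT and TTTGAA on either strand, so that ATTGG and TTCAAA are the same elements on the opposite strand. Cdk1 lies on the plus strand at chr20:19265043-19265322, Smc4 on the plus strand at chr2:155550012-155550291, Cenpw on the plus strand at chr1:29353720-29353999, and Pcna on the minus strand at chr3:139955791-139956070.
Cdk1: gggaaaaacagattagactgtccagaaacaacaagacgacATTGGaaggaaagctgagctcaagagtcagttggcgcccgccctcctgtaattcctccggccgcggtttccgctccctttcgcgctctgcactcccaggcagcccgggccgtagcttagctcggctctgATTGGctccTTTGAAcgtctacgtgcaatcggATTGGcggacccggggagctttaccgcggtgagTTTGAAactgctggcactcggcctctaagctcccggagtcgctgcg
Smc4: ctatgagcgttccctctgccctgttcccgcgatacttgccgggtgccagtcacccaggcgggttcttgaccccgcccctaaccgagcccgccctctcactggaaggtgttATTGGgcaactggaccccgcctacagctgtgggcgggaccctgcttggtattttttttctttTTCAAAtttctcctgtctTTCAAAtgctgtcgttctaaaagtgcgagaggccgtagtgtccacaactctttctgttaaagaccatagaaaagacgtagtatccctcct
Cenpw: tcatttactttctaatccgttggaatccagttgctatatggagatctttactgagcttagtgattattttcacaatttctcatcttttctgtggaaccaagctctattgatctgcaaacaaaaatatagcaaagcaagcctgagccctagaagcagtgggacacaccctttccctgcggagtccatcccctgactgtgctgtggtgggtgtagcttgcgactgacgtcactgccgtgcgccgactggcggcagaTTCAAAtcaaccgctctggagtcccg
Pcna: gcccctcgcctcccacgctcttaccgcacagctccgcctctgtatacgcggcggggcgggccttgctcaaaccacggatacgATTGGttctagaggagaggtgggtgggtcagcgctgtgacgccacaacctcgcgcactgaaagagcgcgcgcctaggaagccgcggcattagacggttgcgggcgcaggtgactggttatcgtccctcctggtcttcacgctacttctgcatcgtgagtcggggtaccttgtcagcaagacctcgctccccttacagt
The Cdk1 run held 3 CCAAT and 2 TTTGAA matches, the TTTGAA pair starting 72 and 16 bases before the start site. Smc4 held 1 CCAAT and 2 TTTGAA matches, Cenpw 1 TTTGAA match and Pcna 1 CCAAT match. In windows of 300 bases, from 250 before to 50 after the start, CCAAT on either strand was in 11 of 13 mitosis genes and 9 of 15 DNA replication genes with a promoter in the table, and in 37.7% of 27457 promoters. TTTGAA was in 10 of the 13 mitosis genes, in 0 of the 15 replication genes and in 18.1% of all promoters. An E2F-type element, TTTGGCGC or TTTCCCGC, was in 1 of 13, 4 of 15 and 1.53%. A match describes the letters only.

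Several arrays stood apart, and left tPA replicate 2 was the first of them. An injury index was formed as the mean of 258 probe sets higher in left gel than in sham arteries at day 1 minus the mean of 241 lower ones, chosen on gel, sham and intact arrays alone. It was 2.03 and 1.76 in left tPA replicates 1 and 3, but -0.164 in replicate 2, against 2.44 to 2.57 in gel, -1.15 to -1.05 in sham and -0.655 to -0.313 in intact arrays. The choice of probe sets itself sets gel and sham far apart. The step from gel to tPA replicates 1 and 3 can therefore not be read as less injury. Without the cell division genes the indices of the tPA arrays were 2.09, -0.112 and 1.90. In the right artery, which was not ballooned, tPA replicate 2 had an index of 1.42 and its group 0.0439 and -0.36. Both arrays go against the rest of their groups, so the main results below are given with and without left tPA replicate 2.

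**Figure D1:**
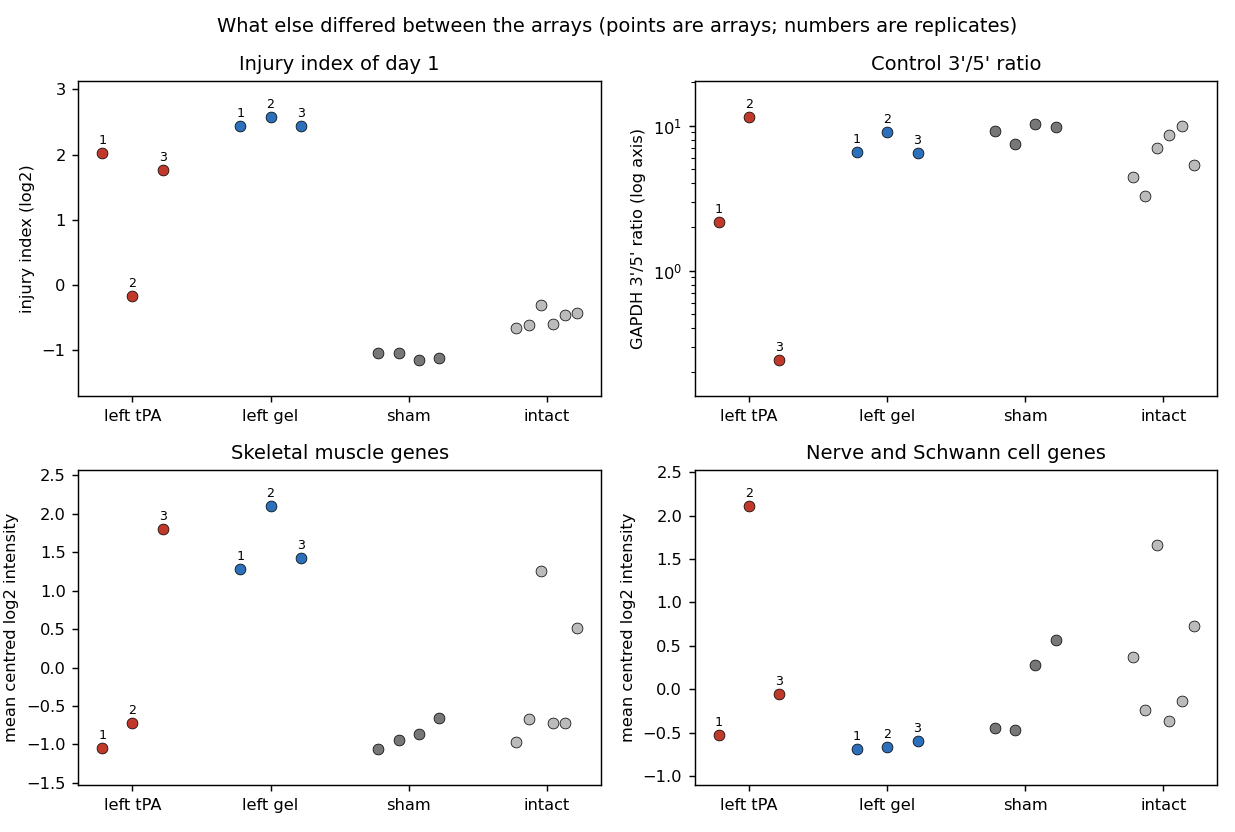
Measures (index of injury, GAPDH 3′/5′ ratio on a log axis, and the mean centred log2 intensity of the skeletal muscle and of the nerve lists) for each array of the left tPA, left gel, sham and intact groups. Left tPA replicate 2 has an index of -0.164 beside 2.03 and 1.76, and the highest nerve list mean (2.11), while left tPA replicate 3 has the lowest GAPDH ratio (0.243).

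The tPA arrays also varied more than the gel arrays. The SD of log2 differences between 2 tPA arrays was 1.15 to 1.20, as wide as between a tPA and a gel array (0.967 to 1.19). Gel replicates 1 and 3 were the most alike of 60 within-group pairs (SD 0.450, median of all pairs 0.838), though not identical, and replicate 2 differed from them by 0.973 and 0.981. The 3′/5′ ratio of control transcripts, higher where the 5′ end gives less signal, was 2.18, 11.4 and 0.243 for GAPDH in the tPA arrays and 6.47 to 9.04 in gel arrays, and 9.10, 17.8 and 2.80 against 13.4 to 19.4 for actin. The share of values at the floor of 23.3 intensity units was 17.4 to 20.3% in tPA and 21.2 to 24.8% in gel arrays. The part of these measures in the results was not tested. The arterial smooth muscle markers Acta2, Myh11, Tagln and Cnn1 were bright in all 6 arrays, with intensities of at least 908. Des, desmin, a further marker, was dim in 5 of the 6, at 32.7, 74.0 and 1338 with tPA and 39, 89.8 and 49.4 with gel, and Smtn was not analysed here.

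Over 5827 probe sets of 3546 genes and unnamed transcripts, limma called 7 between tPA and gel at an adjusted p under 0.05, or 0.120% of those tested, with 1 higher with tPA (0.0172%) and 6 lower (0.103%). Of these, 3 belonged to mitosis genes, 1 to a replication gene, 1 to Tpm1, 1 to Adora2a, and 1 had no gene name. Without left tPA replicate 2, 24 were called (0.412%), 5 higher (0.0858%) and 19 lower (0.326%), and 4 of the 7 were among them. Counted with 1 probe set per named gene, 1 gene was called higher (0.0282%) and 4 lower (0.113%), and without replicate 2 the counts were 3 (0.0846%) and 12 (0.338%). Single arrays moved the count in both directions. It was 132 without left tPA replicate 1 and 0 without replicate 3, and 0, 20 and 0 without gel replicates 1, 2 and 3. With gel replicates 1 and 3 averaged to 1 array, or with only these 2 groups in the fit, it was 0. Without 4 tPA arrays of the series that stand apart, it was 115 (1.97%), 23 higher (0.395%) and 92 lower (1.58%). The count without replicate 2 fell from 24 to 6 when gel replicate 1 or 3 was left out as well, and was 131 without tPA replicate 1. All 6 arrays were separated between the groups in 17.7% of probe sets, with tPA higher in 11.4% and lower in 6.28%.

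Of 14 genes of mitosis tested, 3 were lower with tPA than with gel past the threshold, and 11 did not pass. Cdk1, the kinase that starts mitosis, read 70.8, 105 and 137 intensity units in tPA replicates 1, 2 and 3, and 1036, 602 and 1074 in the gel arrays. Every tPA array lay below every gel array. On the log2 scale the means were 6.65 ± 0.48 (SD, n = 3) and 9.77 ± 0.47 (SD, n = 3), 8.70-fold lower with tPA (95% interval 3.34 to 22.7, limma adjusted p = 0.0498). Without tPA replicate 2 the difference was -3.15, with an adjusted p of 0.0546. Sham arteries read 92.9 to 119 for Cdk1, within the range of the tPA arrays. Left tPA replicate 2, at 105, had an injury index of -0.164, beside 2.03 and 1.76 in replicates 1 and 3. Right tPA replicate 2, with an index of 1.42, read 976 for Cdk1. Whether the separation depends on these labels was not tested.

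Cenpw, a protein of the centromere on which kinetochores are built, read 101, 150 and 78.3 with tPA and 755, 653 and 675 with gel. The groups were far apart and the gel arrays nearly alike. It was 6.54-fold lower with tPA (95% interval 3.00 to 14.3, limma adjusted p = 0.0366) and remained past the threshold without tPA replicate 2 (difference -2.96, adjusted p = 0.0205). Smc4, a subunit of the condensin complex that compacts chromosomes, read 689, 268 and 399 with tPA and 2156, 1881 and 2128 with gel, 4.89-fold lower (95% interval 2.56 to 9.34, limma adjusted p = 0.0366). Its tPA arrays also lay below the sham arteries (855 to 1420), with a log2 difference from sham of -1.46 (limma adjusted p = 0.0429). Without tPA replicate 2 the difference of Smc4 from gel was -1.97 (adjusted p = 0.0661). Racgap1, which organises the cleavage of the cell at the end of mitosis, read 164, 186 and 186 with tPA and 981, 947 and 1054 with gel, a tight separation (difference -2.48) that missed the threshold (limma adjusted p = 0.062). Anapc15, a subunit of the anaphase-promoting complex outside the mitosis list, read 30, 27.0 and 33.5 with tPA and 259, 177 and 193 with gel (difference -2.78, limma adjusted p = 0.0774).

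**Figure D2:**
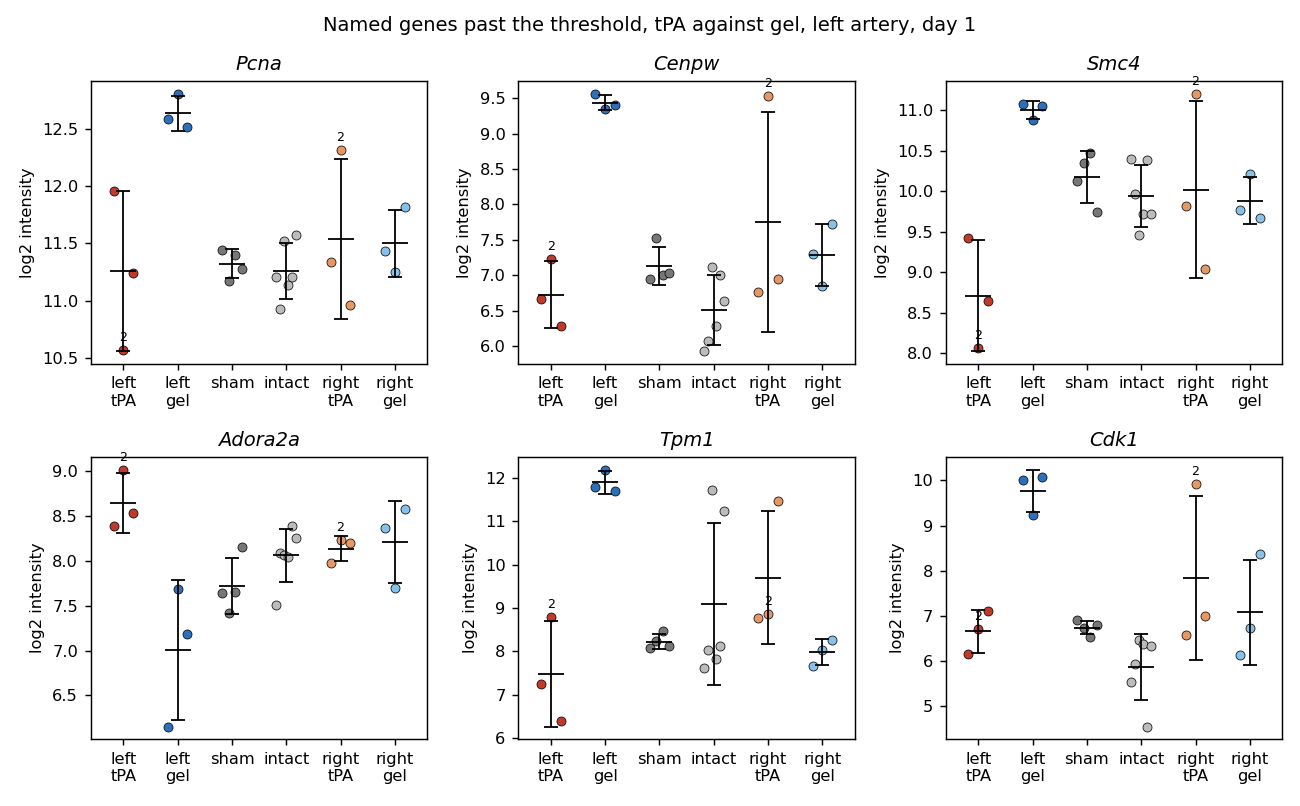
Log2 intensity of the 6 named genes past the threshold, in the left tPA, left gel, sham, intact, right tPA and right gel arrays (day 1 except intact). Points are arrays, lines the mean and SD, and 2 marks tPA replicate 2 of each side. Cdk1, Cenpw, Smc4, Pcna and the Tpm1 probe set are lower in all left tPA than in all left gel arrays, and Adora2a is higher.

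The mitosis list holds 48 genes, of which 20 had a probe set on the array and 14 passed the filter on dim values. Of the 14, 3 fell (Cdk1, Cenpw and Smc4), 0 rose and 11 did not pass. In 13 of the 14 the difference was below 0, and in 12 every tPA array lay below every gel array, where 7.16% of 3546 genes were separated in that direction (254 genes) and 11.6% in the other. Their median difference was -1.83, from -3.12 to 0.91, beside 0.12 over all genes tested. Cdc25b, a phosphatase that activates Cdk1, was the 1 member above 0. Without tPA replicate 2 the median was -1.96, and 1 member (Cenpw) was called. The filter used the brightness over all 40 arrays, and the 6 list genes that it left out have no value here.

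**Figure D3:**
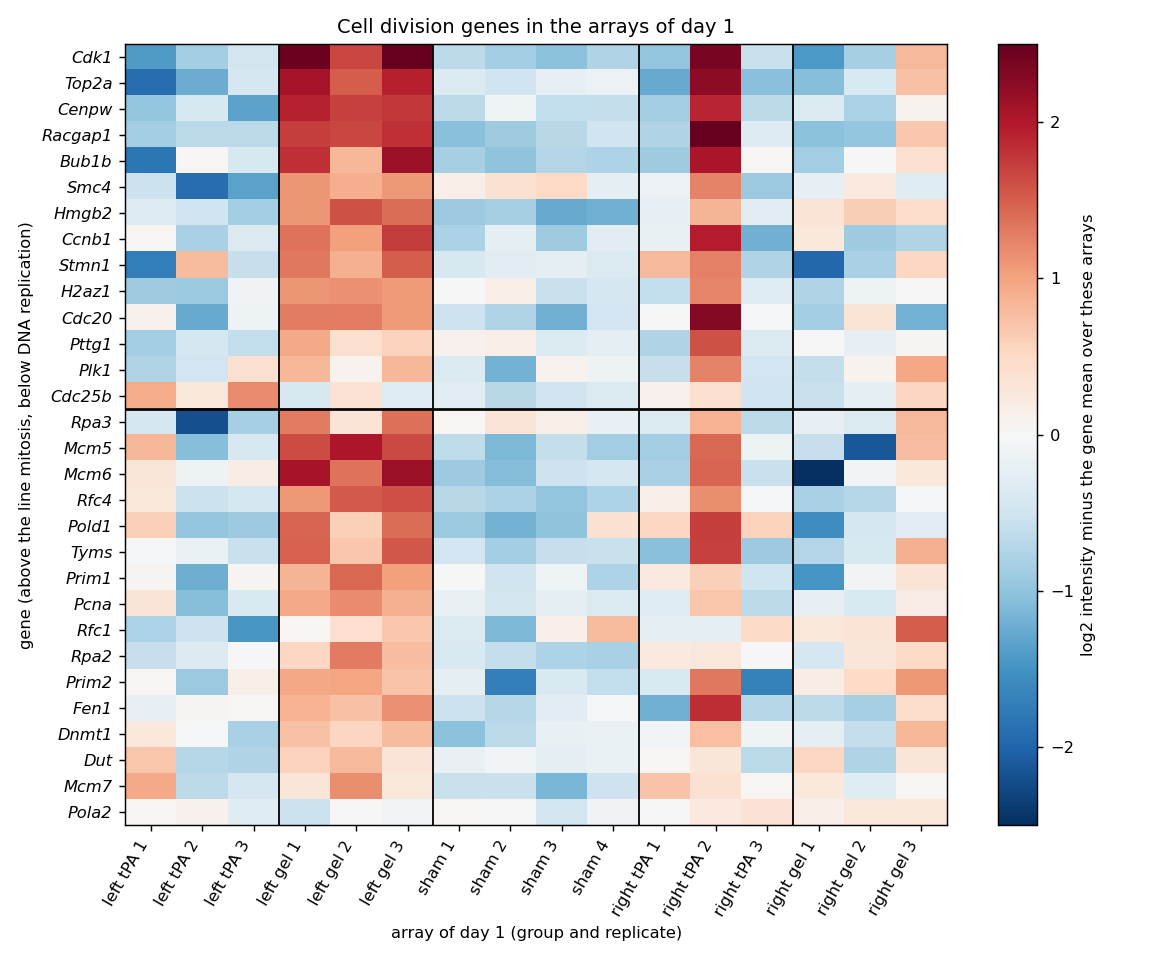
Log2 intensity of the 14 mitosis and 16 DNA replication genes tested, minus each gene's mean over the 16 arrays of day 1 shown; colours end at 2.5 either way. The 3 left gel arrays and right tPA replicate 2 are high across most genes, and the left tPA arrays lie nearer to sham than to gel for most mitosis genes.

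Genes that copy DNA were also mostly lower with tPA, and 1 of them passed the test. Pcna, the sliding clamp that holds DNA polymerase on its template, read 3985, 1516 and 2427 with tPA and 6153, 7171 and 5863 with gel. The groups did not overlap, and tPA replicate 1 was the nearest to gel. It was 2.60-fold lower with tPA (95% interval 1.73 to 3.93, limma adjusted p = 0.0472), and a second Pcna probe set differed by -1.77 (adjusted p = 0.062). Without tPA replicate 2 the difference was -1.03 (adjusted p = 0.115). Rfc4, a subunit of the factor that loads the clamp, read 378, 213 and 229 with tPA and 661, 898 and 949 with gel (difference -1.64, limma adjusted p = 0.062), and another probe set of Rfc4 differed by 0.32. Rpa3, a subunit of the protein that coats single-stranded DNA, read 631, 184 and 475 against 2087, 1077 and 2199 (difference -2.16, limma adjusted p = 0.062). Of 16 replication genes tested, from 19 on the array and 40 listed, 1 fell (Pcna), 0 rose and 15 did not pass. The difference was below 0 in 15, beside 1480 of all 3546 genes. In 12 every tPA array lay below every gel array, beside 7.16% of all genes. The median difference of the list was -1.34, and -1.10 without tPA replicate 2.

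The G1 genes, which govern the decision to enter the cycle, did not show that pattern. Of 15 tested, 0 passed, 9 lay below 0 and 6 above, beside 1480 and 2065 of all 3546 genes. In each direction 1 was separated, and the median was -0.06. Ccne1, the cyclin of entry into replication, read 195, 198 and 142 with tPA and 372, 553 and 376 with gel (difference -1.27, limma adjusted p = 0.062), while its other probe set differed by 0.03. Myc, a transcription factor induced when cells leave rest, read 528, 224 and 335 with tPA and 179, 141 and 232 with gel (difference 0.92, limma adjusted p = 0.415). In sham arteries Myc read 59.6 to 84.9, below both injured groups. Ccnd1, a G1 cyclin, read 532, 680 and 270 against 1069, 646 and 1308, with overlapping groups (difference -1.07, limma adjusted p = 0.476). The other Ccnd1 probe sets differed by -0.18, 0.08 and 0.72.

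Set beside sham arteries, which both comparisons share as controls, the mitosis genes had a median difference of 1.93 in gel and -0.02 in tPA arteries. For the replication genes these medians were 1.39 and 0.32. Cdk1 was above sham in gel arteries (3.04, limma adjusted p = 0.00569) and at -0.09 in tPA arteries (adjusted p = 0.954). Cenpw was at 2.31 (adjusted p = 0.00935) and -0.40 (0.679), Racgap1 at 2.52 (0.00885) and 0.04 (0.976), and Pcna at 1.31 (0.00569) and -0.07 (0.914). Not every member did so. Smc4 and Rpa3 did not pass between gel and sham, at 0.83 and 0.92 (limma adjusted p = 0.374 and 0.377). With tPA they lay at -1.46 and -1.24 from sham. Pttg1 (0.72, 0.357) and Top2a (2.15, 0.0701) did not pass between gel and sham either. The called genes were chosen by values in these same gel arrays, which favours a high gel level. Over all 5827 probe sets 3.12% were called between gel and sham, 1.66% higher and 1.46% lower, and 4.43% between tPA and sham, 1.61% higher and 2.81% lower. In these whole arteries, fewer dividing cells and less of each RNA per dividing cell cannot be told apart. The part of other tissues, of the 3′/5′ ratios and of the label of tPA replicate 2 in these differences was not tested either.

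A probe set of Tpm1 also fell. The Tpm1 probe set past the threshold, 1 of 4 for this tropomyosin of thin filaments and named here after its value was seen, read 153, 443 and 84.1 with tPA and 3547, 4679 and 3333 with gel. That is 21.3-fold lower (95% interval 6.45 to 70.6, limma adjusted p = 0.0293), and 33.6-fold without tPA replicate 2. The other Tpm1 probe sets differed by -2.66, -0.14 and 0.71, and did not pass. Sham arteries read 270 to 357 for the called probe set, near the tPA arrays. Other arteries without balloon injury varied. Intact replicates 3 and 6 read 3383 and 2402, and the other intact arrays 196 to 279. Right tPA arrays read 438, 463 and 2835, and right gel arrays 202 to 308.

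Genes of skeletal muscle, a tissue that borders the carotid sheath, had high sums in all 3 gel arrays and in tPA replicate 3, but the members did not behave alike in that replicate. Tnnc2, the fast skeletal troponin C, read 56.7, 95.3 and 463 with tPA and 4082, 7537 and 3977 with gel, with 69.9 to 119 in sham (difference -5.19, limma adjusted p = 0.062). Atp2a1, the calcium pump of fast muscle, read 82.3, 152 and 69.7 against 1403, 4529 and 1400 (difference -4.44, limma adjusted p = 0.0691). Myh4, a fast myosin heavy chain, read 105, 49.2 and 5397 with tPA and 4354, 5746 and 3710 with gel, so tPA replicate 3 lay among the gel arrays. The summed intensity of the 26 skeletal muscle genes tested was 4381, 7582 and 51470 in tPA replicates 1 to 3 and 31200 to 58650 in gel arrays, against 5749 to 7406 in sham. The sum was 5964 to 37460 in intact, 5898 to 33410 in right tPA and 6527 to 7867 in right gel arrays. Tnnc2 read 5370 and 2077 in intact replicates 3 and 6 and 4316 in right tPA replicate 3, the arrays in which the Tpm1 probe set was also high. Of the 26, 0 passed, 5 were separated lower, beside 7.16% of all genes, and the median difference was -0.80. The part of this tissue in the Tpm1 result, or in any other, was not tested.

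The 1 probe set that rose with tPA was that of Adora2a, an adenosine receptor, which raises cyclic AMP and relaxes vessels. It read 335, 519 and 371 with tPA and 71.1, 206 and 146 with gel. The groups did not overlap, with tPA replicate 2 the highest and gel replicate 1 the lowest. Adora2a was 3.11-fold higher (95% interval 2.05 to 4.73, limma adjusted p = 0.0232), and 2.74-fold without tPA replicate 2 (adjusted p = 0.0321). Sham arteries read 171 to 286, and against them gel differed by -0.71 (adjusted p = 0.185) and tPA by 0.93 (adjusted p = 0.0469). Bdkrb1, the inducible bradykinin B1 receptor, read 205, 241 and 190 with tPA and 20.9, 123 and 109 with gel (difference 1.64, limma adjusted p = 0.235). Adrb1, the beta-1 adrenergic receptor, read 83.6, 137 and 161 against 72.1, 27.3 and 58.7 (difference 1.33, limma adjusted p = 0.215). Of 37 vasoactive receptor and second messenger genes tested, 1 rose (Adora2a), 0 fell, 26 lay above 0 and 11 were separated higher, with a median of 0.34. Over all genes 2065 of 3546 lay above 0 and 11.6% were separated higher.

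Leaving out tPA replicate 2 brought in genes on which that array read like gel or sham and the other tPA arrays did not. The 3′/5′ ratios set the same arrays apart. For GAPDH they were 2.18 and 0.243 in tPA replicates 1 and 3, 11.4 in replicate 2, and 6.47 to 9.04 in gel. For actin they were 9.10 and 2.80, 17.8, and 13.4 to 19.4. The part of this in the results without replicate 2 was not tested. Slit3, a secreted guidance protein, read 35.6 and 35 in tPA replicates 1 and 3, 488 in replicate 2, and 381, 375 and 397 with gel. Its difference without replicate 2 was -3.44 (10.9-fold lower, limma adjusted p = 0.00494), and -2.18 with all arrays (adjusted p = 0.166). Septin8, a cytoskeletal GTPase, read 50.2 and 39.7, then 793 in replicate 2, and 592, 944 and 463 with gel (difference -3.84 without replicate 2, limma adjusted p = 0.0205). Sham arteries read 367 to 627 for Slit3 and 876 to 1498 for Septin8, so that tPA replicates 1 and 3 lay below sham as well.

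Nupr1, a stress-induced chromatin protein, read 478 and 553 in tPA replicates 1 and 3, 3428 in replicate 2, and 3581, 2118 and 3455 with gel (difference -2.53 without replicate 2, limma adjusted p = 0.00647). Lbp, which presents bacterial lipopolysaccharide to its receptor, read 212 and 160, then 1001, and 1723, 507 and 1557 with gel (difference -2.59, adjusted p = 0.00584). Spink8, a predicted serine protease inhibitor, read 43.0 and 21.7, then 214, and 288, 154 and 276 with gel (difference -2.86, adjusted p = 0.0311). All these genes were lower in tPA replicates 1 and 3 than in every gel array, as were 12.6% of all probe sets; 17.7% were higher and 30.4% separated either way. A probe set of Cyp51, an enzyme of sterol synthesis (not the brightest for the gene), Csrp2, a LIM protein of smooth muscle, and Agrn, agrin, were also called lower without replicate 2 (differences -1.78, -2.05 and -1.89), as were Lamp1, Bex3, Slc22a18 and Aopep; these 7 are named after their values were seen. Sham arteries read 504 to 598 for Spink8, above both groups.

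Acta1 and Ckm, skeletal actin and muscle creatine kinase, gave the largest falls past the threshold without replicate 2, but each is listed at 0 in tPA replicate 3. Acta1 read 266, 1861 and 0 with tPA and 6079, 5571 and 5806 with gel, and Ckm 196, 1289 and 0 against 2326, 5440 and 2343. Myh4 read 5397 in that same replicate. The fitted differences without replicate 2 were -6.21 and -5.52 (limma adjusted p = 0.00494 for both), with 0 raised to the floor, and their size depends on it. A listed 0 for genes as bright as these may be a failed estimate, in which case these differences have no value for that replicate. Of the skeletal muscle list these 2 were called lower without replicate 2 and 24 did not pass.

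Emb, Bckdhb and Nfkbia rose without replicate 2, beside Adora2a and 1 unnamed probe set. Emb, embigin, a cell surface partner of monocarboxylate transporters, read 1608 and 971 in tPA replicates 1 and 3, 382 in replicate 2, and 390, 356 and 512 with gel (difference 1.59, 3.02-fold, limma adjusted p = 0.0311). Bckdhb, a subunit of the enzyme that breaks down branched-chain amino acids, read 500 and 992, then 368, and 230, 427 and 255 with gel (difference 1.27, adjusted p = 0.042). A probe set of Nfkbia, the inhibitor that holds NF-kappa-B in the cytoplasm, read 332 and 347, then 88.4, and 19.5, 27.2 and 39.5 with gel (difference 3.54, adjusted p = 0.0404). It is not the brighter of 2 for Nfkbia and was named after its value was seen. The other differed by 1.07. In the right artery at day 1 the called probe set read 444, 110 and 372 with tPA and 42.1 to 95.8 with gel. It read 27.6 to 78.8 in sham and 23.6 to 243 in intact arteries. Cdk1, Smc4 and Pcna were no longer called without replicate 2, at differences of -3.15, -1.97 and -1.03.

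**Figure D4:**
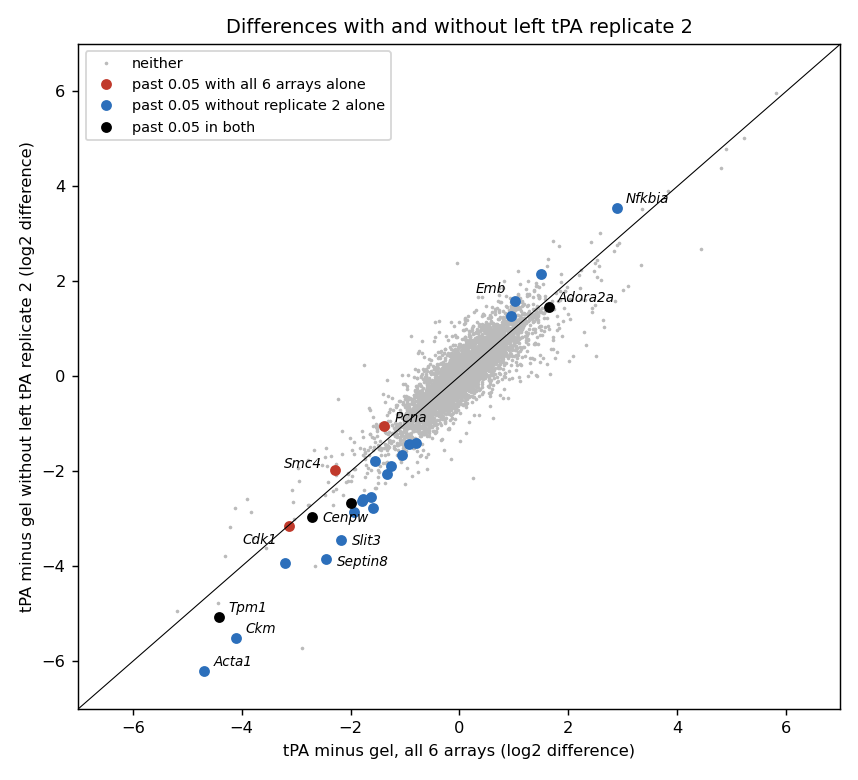
Log2 difference of tPA minus gel for each of 5827 probe sets, with all 6 arrays (horizontal) and without left tPA replicate 2 (vertical); the line marks equal values and colours mark an adjusted p under 0.05. The 4 probe sets in black passed in both, and Acta1, Ckm, Slit3 and Septin8 lie below the line, further from 0 without the array.

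Markers of nerve, fat and blood cells varied between arrays of one group, and the nerve list was highest in tPA replicate 2. All 26 nerve and Schwann cell genes tested lay above 0 with tPA, beside 2065 of all 3546 genes. The list median was 1.03, and 0.24 without replicate 2, and 0 passed in either. The summed intensity of the list was 7920, 32660 and 9353 in tPA replicates 1 to 3 and 6651 to 8562 in gel. Th, the first enzyme of catecholamine synthesis, read 312, 1914 and 282 with tPA and 246 to 258 with gel, and Dbh, a later enzyme of the same path, 13, 687 and 24.8 against 6.6 to 20.1. Scn7a, a sodium channel of glia and nerve, read 2.90, 5787 and 964 with tPA and 3.50 to 6.50 with gel, below the floor in every gel array (limma adjusted p = 0.271). S100b, a Schwann cell protein, read 7, 1054 and 327 against 9.30 to 21.5, and Prx, a myelin protein, 260, 5035 and 471 against 158 to 305. Sham arteries read 31.3 to 4852 for Scn7a, so this channel varied as widely among controls.

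Adipocyte genes were summed at 10290, 26770 and 28460 in the tPA arrays and 8956 to 15800 in gel. Of 19 tested, 0 passed, with a median of 0.43. In 18 the difference was above 0 and 3 were separated higher, beside 2065 of 3546 and 11.6% over all genes. Lipe, the hormone-sensitive lipase, read 477, 1581 and 1360 with tPA and 377, 206 and 355 with gel (difference 1.74, limma adjusted p = 0.112). Ucp1, the uncoupling protein of brown fat, read 73.2, 2023 and 942 against 79.7, 101 and 97.4 (difference 2.49, limma adjusted p = 0.245). For both, tPA replicates 2 and 3 were the high arrays.

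S100a8, Ptprc and Cd37 were lower in replicate 2 of each group than in its replicates 1 and 3. S100a8, a calcium-binding protein of neutrophils, read 1115, 90.9 and 4683 with tPA and 2557, 158 and 2614 with gel (difference -0.38, limma adjusted p = 0.918). Ptprc, the common leukocyte antigen CD45, read 1597, 85.2 and 1076 against 934, 185 and 1184. Cd37, a leukocyte tetraspanin, read 536, 53.5 and 435 against 182, 78.3 and 165 (difference 0.81, and 1.86 without tPA replicate 2, limma adjusted p = 0.0921). Ctss, the cathepsin of antigen-presenting cells, read 8145, 3865 and 4631 against 3732, 3134 and 3609 (difference 0.60, limma adjusted p = 0.485). Of the 15 lymphocyte and pan-leukocyte genes tested 0 passed, with a median of 0.42, and 0.95 without tPA replicate 2. Of 10 macrophage genes and 12 of antigen presentation 0 passed, with medians of 0.29 and 0.44. Of 4 neutrophil genes 0 passed, with a median of -0.24, and 0.74 without tPA replicate 2.

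**Figure D5:**
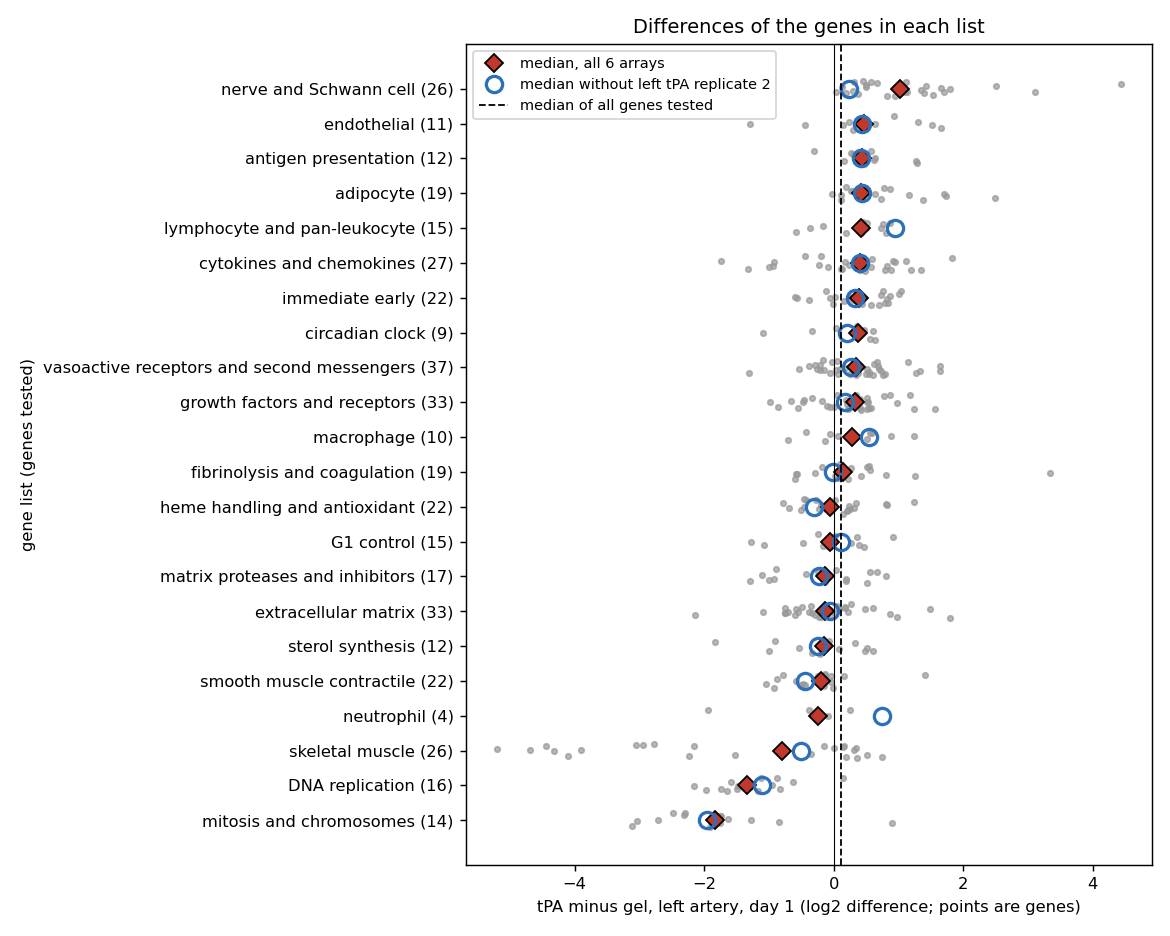
Log2 difference of tPA minus gel for the genes of 22 lists (grey points), with the list median over all 6 arrays (diamonds) and without left tPA replicate 2 (circles); the dashed line is the median of all genes tested. The mitosis (-1.83) and replication (-1.34) lists lie lowest, and the nerve list moves from 1.03 to 0.24 without that array.

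The genes of the plasminogen system itself did not pass. Plat, which encodes tPA, read 891, 364 and 361 with tPA and 617, 1144 and 574 with gel, with overlapping groups (difference -0.60, 95% interval -1.45 to 0.25, limma adjusted p = 0.531). The label describes recombinant protein, so this RNA is that of the artery's own gene. Plau, the urokinase gene, read 513, 329 and 797 against 273, 288 and 314, separated by a narrow margin (difference 0.81, limma adjusted p = 0.449). Plaur, the urokinase receptor, read 1044, 411 and 663 against 544, 604 and 705 (difference 0.10, limma adjusted p = 0.959), and its sign turned under median scaling. Fgg, a chain of fibrinogen, read 129, 165 and 139 against 38.3, 74.3 and 76.1 (difference 1.26, limma adjusted p = 0.275), and A2m, a broad protease inhibitor, 322, 434 and 363 against 239, 248 and 279 (difference 0.54, adjusted p = 0.346). Of 19 genes of fibrinolysis and coagulation tested, 0 passed, with a median of 0.15. In this list 5 were separated higher and 2 lower, beside 11.6% and 7.16% of all genes.

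Of 22 smooth muscle contractile genes tested 0 passed, and 20 lay below 0 with tPA, beside 1480 of all 3546 genes. Acta2, smooth muscle actin, read 5757, 6421 and 5262 with tPA and 6559, 6627 and 6143 with gel (difference -0.15, limma adjusted p = 0.818). Other Acta2 probe sets differed by -0.49 and 0.45. Myh11, smooth muscle myosin, read 1885, 3176 and 908 against 2754, 4495 and 2694 (difference -0.87, limma adjusted p = 0.39), below sham arteries (4237 to 6094) in all but 1 of the 6. Other Myh11 probe sets differed by 0.30 and -0.48. Tagln, an actin-bundling protein, read 3315, 4435 and 2072 against 2937, 3884 and 2877 (difference -0.04, limma adjusted p = 0.992). Gucy1a1 and Gucy1b1, the subunits of the nitric oxide receptor, differed by -1.04 (limma adjusted p = 0.215) and -0.92 (adjusted p = 0.235), and in both every tPA array lay below every gel array. These 2 were the members separated lower, beside 7.16% of all genes in that direction. The median of the list was -0.20, and -0.45 without tPA replicate 2.

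Matrix genes varied without a common direction. Lum, lumican, which spaces collagen fibrils, read 2128, 2012 and 437 with tPA and 6102, 4454 and 5968 with gel, a separation of every array (difference -2.15, limma adjusted p = 0.0888). Fbln5, an organiser of elastic fibres, read 3789, 4367 and 1399 against 5418, 7926 and 5259 (difference -1.10, limma adjusted p = 0.126). Tnc, tenascin C, a protein of remodelling matrix, was separated higher at 318, 292 and 374 against 124, 185 and 198 (difference 0.98, limma adjusted p = 0.416). Spp1, osteopontin, read 7772, 2401 and 4271 against 6582, 9516 and 6117 (difference -0.76, limma adjusted p = 0.536). Col1a1 and Col3a1, the main fibrillar collagens, differed by 0.09 and 0.02 (limma adjusted p = 0.914 and 0.997), with signs that turned under quantile normalization, median scaling and array weights. Of 33 matrix genes tested 0 passed, with a median of -0.14, and 20 lay below 0, beside 1480 of all 3546 genes. Separated lower were 3 and higher 1, beside 7.16% and 11.6% of all genes.

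Among the proteases, Mmp16, a membrane-type metalloproteinase, read 188, 130 and 63.4 with tPA and 278, 252 and 327 with gel, without overlap (difference -1.30, limma adjusted p = 0.0782). Ctsk, cathepsin K, a collagen-degrading protease, read 1020, 2493 and 1072 against 3087, 2211 and 3153 (difference -0.99, limma adjusted p = 0.255). Mmp9, gelatinase B, read 801, 15.9 and 887 against 1076, 87.8 and 1102, low in replicate 2 of both groups (difference -0.88, and 0.84 without tPA replicate 2). Mmp2, gelatinase A, differed by -0.17 and its inhibitor Timp1 by 0.19 (limma adjusted p = 0.862 and 0.854). The other Mmp2 probe set differed by 0.87 (limma adjusted p = 0.338), with every tPA array above every gel array. The other Timp1 probe set differed by -0.11, and the sign of the first turned under median scaling. Of 17 tested 0 passed, with a median of -0.13. In each direction 2 were separated, beside 11.6% higher and 7.16% lower over all genes.

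Among growth factors and receptors, 0 of 33 passed, 6 were separated higher and 0 lower, beside 11.6% and 7.16% of all genes, and the median was 0.34. Met, the receptor of hepatocyte growth factor, read 74.2, 78.6 and 82.1 with tPA and 36.7, 15.5 and 48.5 with gel (difference 1.18, limma adjusted p = 0.239). Ntf3, a neurotrophin, read 1008, 4230 and 1488 against 4931, 2163 and 4551 (difference -0.98, and -1.57 without tPA replicate 2, limma adjusted p = 0.0546). Pdgfra, a platelet-derived growth factor receptor, read 929, 4131 and 889 against 1495, 508 and 1522 (difference 0.52, and -0.21 without tPA replicate 2). Of 27 cytokine and chemokine genes 0 passed, with a median of 0.40. Csf1, the macrophage growth factor, was separated higher at 413, 463 and 433 against 277, 259 and 346 (difference 0.58, limma adjusted p = 0.312). Ptgs1, the constitutive cyclooxygenase, was separated lower at 592, 651 and 609 against 1006, 1494 and 1075 (difference -0.93, limma adjusted p = 0.25).

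Of 11 endothelial genes tested 0 passed, 9 lay above 0 and 4 were separated higher, beside 2065 of 3546 and 11.6% over all genes, and the median was 0.47. Selp, P-selectin, which tethers leukocytes and is also a platelet protein, read 429, 680 and 415 with tPA and 199, 75.1 and 259 with gel (difference 1.66, limma adjusted p = 0.0688). Kdr, the main receptor of vascular endothelial growth factor, read 185, 252 and 236 against 74.0, 61.3 and 101 (difference 1.53, limma adjusted p = 0.329). Vcam1, an adhesion molecule also made by activated smooth muscle, read 4543, 808 and 1320 against 3750, 5104 and 3664 (difference -1.29, limma adjusted p = 0.18). Pecam1, an endothelial junction protein, read 99.5 to 108 with tPA, 83.2 to 91.5 with gel and 74.4 to 112 in sham.

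Genes of sterol synthesis and of the clock did not pass with all arrays. Some were separated, as were 11.6% (higher) and 7.16% (lower) of all genes. Idi1 and Sqle, enzymes of sterol synthesis, read 336, 126 and 182 against 464, 2015 and 374, and 638, 573 and 349 against 939, 1344 and 814 (differences -1.83 and -1.0, limma adjusted p = 0.098 and 0.21). Of 12 sterol genes tested 0 passed, 2 were separated lower and 2 higher, and the median was -0.14. Per2, a repressor of the circadian clock, read 169, 169 and 265 with tPA and 361, 602 and 336 with gel, while Nr1d1 and Tef, which respond to the clock, differed by 0.61 and 0.56, and of 9 clock genes 0 passed, 1 was separated lower and 2 higher, and the median was 0.38. Hp, haptoglobin, which binds free hemoglobin, read 1005, 539 and 2018 against 667, 187 and 672 (difference 1.23, limma adjusted p = 0.349). Of 22 genes of heme handling and antioxidant defence and 22 immediate early genes 0 passed, with medians of -0.05 and 0.39.

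Among all genes the widest gaps upward were small in level. Slc32a1, a vesicular transporter of inhibitory transmitters, read 127, 188 and 154 with tPA and 32.9, 42.9 and 46.5 with gel (difference 1.94, limma adjusted p = 0.208). The other Slc32a1 probe set differed by -0.17, with overlapping groups. Rnf157, a ubiquitin ligase, read 158, 481 and 223 against 65.5, 67.3 and 53.6, and Gnaz, a G protein subunit, 109, 201 and 139 against 43.3, 41.3 and 47.0. Hrk, a protein that promotes cell death, Gdf10, a member of the TGF-beta family, and Crygd, a lens crystallin, differed by 1.64, 1.28 and 1.78. None of these 6 passed the test, with limma adjusted p from 0.112 to 0.272. Over all genes 411 were separated higher with tPA and 254 lower.

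The difference between days was tested as tPA minus gel at day 1 minus the same at day 4 in the left artery, and 5 probe sets passed (0.0858%), 3 above 0 (0.0515%) and 2 below (0.0343%). Apod, a lipid-binding protein, differed by 2.44 at day 1 and by -3.45 at day 4 (interaction 5.89, limma adjusted p = 0.0359). Selp differed by 1.66 and -1.21 (interaction 2.86, adjusted p = 0.0359), and Rab4b, a GTPase of endosomes, by 1.41 and -1.94 (interaction 3.35, adjusted p = 0.0359). Mmp16 differed by -1.30 and 1.05 (interaction -2.35), and a probe set of Bdnf, a neurotrophin, by -2.27 and 1.94 (interaction -4.21), both with an adjusted p of 0.0359. That Bdnf probe set is not the brightest for the gene and was named after its value was seen. The cell division genes called at day 1 did not pass here: Cdk1 differed by -0.54 at day 4 (interaction -2.58, limma adjusted p = 0.235), Cenpw by -0.15 (interaction -2.56, adjusted p = 0.134), Smc4 by 0.28 (interaction -2.57, adjusted p = 0.0737) and Pcna by -0.22 (interaction -1.16, adjusted p = 0.213). At day 4 the log2 intensity of Cdk1 was 7.24, 10.09 and 10.25 in the tPA arrays in order of size, and 9.5 to 10.15 in gel. The lowest of these tPA arrays was replicate 1, which had an injury index of -0.774 beside 1.16 and 1.70. Without left tPA day 1 replicate 2, 54 probe sets passed (0.927%), 10 above 0 (0.172%) and 44 below (0.755%). The count was 49 without left tPA day 1 replicate 1, 31 without left tPA day 4 replicate 1 and 12 without left gel day 1 replicate 2. It was 1 without left gel day 1 replicate 1 or left tPA day 1 replicate 3, 2 without left gel day 4 replicate 3 and 3 without left tPA day 4 replicate 3. It was 0 without left gel day 1 replicate 3, left gel day 4 replicate 1 or 2, or left tPA day 4 replicate 2.

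The difference between sides, tPA minus gel in the left artery minus the same in the right artery at day 1, passed in 0 of 5827 probe sets with limma (0%), with 662 at an unadjusted p under 0.05. The fit treated left and right arrays as independent, though both arteries came from injured rats. With replicate numbers as a block, 0 passed as well. Without left tPA replicate 2, 7 passed, all lower (0.120%), and without right tPA replicate 1, 9 passed. Cdk1 differed by -3.12 in the left and 0.77 in the right artery, Cenpw by -2.71 and 0.46, Smc4 by -2.29 and 0.13, and Adora2a by 1.64 and -0.08, with interaction adjusted p of 0.131, 0.131, 0.199 and 0.131. In the right artery Cdk1 and Racgap1 were highest in tPA replicate 2. Cdk1 read 95.7, 976 and 128 in right tPA replicates 1 to 3 and 70.0, 106 and 330 in right gel, and Racgap1 177, 1668 and 237 against 145, 152 and 476. That array is the one with an injury index of 1.42. Whether the 2 arrays labelled tPA day 1 replicate 2 carry the right labels was not tested.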

How the data were processed

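RNA of rat carotid arteries was hybridised to Affymetrix rat genome arrays. The authors deposited 1 linear intensity per probe set and array, with a trimmed mean of 500.3 to 500.8 on every array; the summary algorithm is not given in the sources used here. Of 8799 probe sets, 59 controls were left out. Intensities below the 20th percentile of all values (23.3) were raised to it, log2 was taken, and the dimmest 33.3% by mean were left out, leaving 5827. The authors' deposited intensities were otherwise not renormalised; log2 values here are log2 of the deposited intensity. Probe sets were named by the platform table (7006 with 1 symbol, 308 with several, 1426 without an entry), and a gene is represented by its brightest probe set unless stated.

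One limma fit (limma 3.58.1, R 4.3.3) over all 40 arrays in 11 groups gave moderated statistics, with Benjamini-Hochberg adjustment over all probe sets and a threshold of 0.05. It was checked on simulated data with independent noise and, for each probe set, the same spread in all groups. The real arrays differ in spread and some stand apart, so the check does not show how the fit behaves under those conditions. The fit shares the spread of all groups. Groups do not overlap where every array of one lies above every array of the other.

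Named were all genes past the threshold; the 8 largest rises and falls past it without left tPA replicate 2; for each list the members called and up to 3 with the smallest p; a set led by Plat, Plau, Acta2, Col1a1 and Mmp9; the 6 widest gaps each way; and the 4 largest each way past the threshold in the interactions. The text gives a part of these. The members, lists and alternatives were chosen with earlier results of these data known.

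Each result was recomputed after quantile or median scaling, with other filters on dim probe sets and a higher floor, with array weights, with limma's trend and robust options, within the compared groups alone, with replicate numbers as a block, without 4 tPA arrays that stand apart, with left gel replicates 1 and 3 joined, without 55 probe sets close to 0 on part of the arrays, and with each array left out. No batch is given in the sources used here.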

Additional observations from a re-analysis of the deposited data

Results flagged for a closer look

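For 5 genes the tPA effect in the left artery differed between day 1 and day 4 by the interaction test of limma, each with an adjusted p of 0.0359. The interaction, day 1 minus day 4 on the log2 scale, was 5.89 for Apod, 3.35 for Rab4b, 2.86 for Selp, -2.35 for Mmp16 and -4.21 for a probe set of Bdnf. For Mmp16 the log2 intensity was 7.56, 7.02 and 5.99 with tPA and 8.12, 7.98 and 8.35 with gel at day 1, and 7.98 to 8.33 with tPA and 6.96 to 7.24 with gel at day 4, so the groups were separated on both days in opposite directions. For Apod they overlapped at day 1, where 2 of the gel arrays were at the floor and tPA replicate 2 was the highest at 9.39.

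Among 18 checks of a group of 4 or more arrays for the 6 named genes past the threshold, 1 sham array of day 1 lay apart. Cenpw was at 7.53 (log2 intensity) in sham replicate 2 and between 6.95 and 7.03 in the other 3. Chance sets about 1 in 20 such groups apart. All 4 sham arrays lay below the left gel arrays for this gene.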

How the results depend on the processing

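Counts of probe sets past the threshold moved with most settings. For tPA against gel, left artery, day 1 (7), they were 11 with quantile normalization, 49 with median scaling (1 higher, 48 lower, beside 1 and 6), 29 with 50% left out, 41 with a higher floor, 128 with array weights (45 higher, 83 lower), 0 with only the groups compared, 115 without the 4 tPA arrays (23 higher, 92 lower) and 0 with gel replicates averaged; leaving out 1 array gave 0 to 132. Left tPA and gel arrays of the same number had correlations of -0.126, -0.0281 and 0.151, and those of different numbers -0.175 to 0.185. With 3 arrays per group these cannot exclude a replicate pairing, and the replicate block gave 4. For tPA against gel, left artery, day 1, without left tPA day 1 replicate 2 (24), they were 47 with median scaling, 39 with 50% left out, 50 with a higher floor, 50 with array weights, 0 with only the groups compared, 115 without the 4 arrays and 6 with gel replicates averaged, 16 with the replicate block, and 6 to 131 leaving out 1 array. For tPA effect in the left artery, day 1 minus day 4 (5), they were 25 with quantile normalization, 44 with median scaling, 1 with no filter, 3 with 50% left out, 13 with a higher floor, 255 with array weights, 1 with only the groups compared, 0 with the replicate block, 127 without the 4 arrays, 0 with gel replicates averaged and 0 to 54 leaving out 1 array. For tPA effect on day 1, left minus right artery (0), they were 1 with median scaling, 1 with no filter, 3 with a higher floor, 6 with array weights, 16 without the 4 arrays, 0 with the replicate block and 0 to 9 leaving out 1 array. The cause of these changes was not tested. Median scaling moved the median difference of all probe sets from 0.13 to -0.09. The median of the mitosis list stayed between -2.06 and -1.75 and that of the replication list between -1.56 and -1.09 over 18 alternatives. Of 82 genes, 73 kept their sign in all of them. Signs turned for Plaur (-0.12 with median scaling), Tagln (0.020 with quantile normalization, 0.013 with weights), Col1a1 (-0.041 with quantile normalization, -0.14 with median scaling, -0.074 with weights, -0.20 without the 4 arrays), Col3a1 (-0.088, -0.21, -0.074 and -0.053 likewise), Timp1 (-0.035 with median scaling), Mmp9 (0.84 without the 4 arrays), Pdgfra (-0.0018 with weights, -0.21 without the 4 arrays) and S100a8 (1.17 without the 4 arrays, 0.29 with gel replicates averaged). Leaving out 1 array gave -0.23 to 0.44 for Plaur, -0.29 to 0.26 for Tagln, -0.20 to 0.42 for Col1a1, -0.12 to 0.23 for Col3a1, -0.0080 to 0.51 for Timp1, -0.68 to 0.32 for Mmp2, -2.09 to 0.84 for Mmp9, -0.21 to 0.90 for Pdgfra and -1.73 to 1.17 for S100a8. Arrays give no counts: 3 per group limit the precision.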

Other observations

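Some genes were far higher in 1 or 2 of the left tPA arrays than in the others, and are given as values only. Serpina1, the main inhibitor of neutrophil elastase, read 35.2, 228 and 3119 in left tPA replicates 1, 2 and 3 and 24.4 to 33.7 in gel, with 194 to 296 in sham. Myl11, a fast skeletal myosin light chain, read 143, 174 and 2367 against 508 to 1088. Igf2, a fetal growth factor, read 235, 1157 and 1405 against 216 to 294, with 356 to 1007 in sham. Fabp4, the fatty acid carrier of adipocytes, read 35.9, 1063 and 1428 against 64.9 to 283. No test bears on single arrays.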
